A study of Mus musculus with 3 samples.

Results

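Type I interferon response genes are transcripts that cells make after they sense interferon alpha or beta, and they include antiviral enzymes, sensors of foreign nucleic acid and regulators of the response. The set described here has 37 genes, listed by symbol and not picked by a threshold on their values. It and the other gene lists below were chosen with earlier results of these data known. Their shares set against those of all genes are therefore descriptions only. Of the 37 genes, 36 had a row among the 30415 gene symbols of the 3 heart libraries. At least 1 UMI (a counted RNA molecule) was read for 35 in every library. Mx2 had no row. Mx1, an antiviral GTPase, had 14 UMIs in the isotype library, 11 in PD1/PEM and 0 in PDL1/ATZ, and it entered no main comparison. An alternative with a lower minimum of 10 UMIs let it into the PD1/PEM comparison alone.

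All 3 groups were NOD/SCID mice, which lack functional T and B lymphocytes, and each group received antibody on day 0 and on day 7, with hearts taken on day 14. The isotype group received a control antibody and the other groups an immune checkpoint antibody, pembrolizumab (raised against PD-1) or atezolizumab (raised against PD-L1). Each group is 1 droplet library made from 3 pooled, enzymatically digested hearts with 10x Genomics 3′ chemistry, version 3.1. The titles PD1/PEM and PDL1/ATZ are used below as library names, because the treatment tag of the PD1/PEM library reads atezolizumab and that of the PDL1/ATZ library reads pembrolizumab. No difference between libraries can therefore be assigned to an antibody by name. With 1 library per group there is no test and no p-value, and every interval given is a 95% interval for counting error only, which leaves out the spread between hearts and between libraries.

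Interferons of type I bind the receptor pair IFNAR1 and IFNAR2, whose kinases JAK1 and TYK2 phosphorylate STAT2. Phosphorylated STAT2 acts with IRF9 in the complex ISGF3, which binds interferon-stimulated response elements in promoters. Basal expression of these genes is known in many unchallenged tissues.

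The core of that element was searched in the members' promoters, because ISGF3 binds such elements. RefSeq promoter windows on GRCm38.p6, from 250 bases before to 50 bases after a gene's start, were found for 26 of the 37 members. The core was taken as GAAA, any 2 bases and GAAA again, which reads TTTC, any 2 bases and TTTC on the other strand. It stood in the windows of 14 of these 26 members (53.8%), against 3.99% of the 27025 genes with a window. Of a wider list of other interferon-stimulated genes, 26 of 57 held it (45.6%), and of interferon receptors and their kinases 0 of 8. Of effectors of interferon gamma 11 of 15 held it (73.3%), a larger share than of the members. It stood in 5 of 12 interferon genes (41.7%) and 5 of 20 MHC class I and peptide loading genes (25%). The core is therefore not particular to the members. Windows of 6 members with the core upstream of the start are shown from 5′ to 3′ on the strand of the gene, with 20 bases on each side and the core in capitals. Isg15 and Bst2 have overlapping copies within 1 run, and Ifit1 has a pair of separate copies. Ifit3 has a further separate copy, with its first base at -122 from the start, which is not shown. The Isg15 window is chr4:156200855-156200916 on the minus strand, Rsad2 is chr12:26456543-26456592 on the minus strand, and Bst2 is chr8:71537567-71537622 on the minus strand. Ifit1 is chr19:34640765-34640833, Ifit3 is chr19:34583353-34583402 and Stat2 is chr10:128270256-128270305, all on the plus strand.
Isg15: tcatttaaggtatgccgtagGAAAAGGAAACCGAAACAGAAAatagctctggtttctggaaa
Ifit1: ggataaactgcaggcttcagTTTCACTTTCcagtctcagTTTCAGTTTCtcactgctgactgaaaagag
Ifit3: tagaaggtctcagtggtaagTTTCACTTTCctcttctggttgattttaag
Rsad2: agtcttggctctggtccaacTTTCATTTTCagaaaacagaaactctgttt
Bst2: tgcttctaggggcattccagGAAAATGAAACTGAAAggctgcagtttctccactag
Stat2: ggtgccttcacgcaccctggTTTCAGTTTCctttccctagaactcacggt
The stretch shown for Ifit3 also stands, letter for letter, in the window of its neighbour Ifit3b. A match describes the letters only and does not show that a factor binds there.

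The libraries had 9510 cells for isotype, 6388 for PD1/PEM and 11599 for PDL1/ATZ, and their UMIs were 16677883, 14766346 and 15144668. The PDL1/ATZ library stood apart from the others in several ways that touch the comparisons below. Its cells had a median of 8.04% mitochondrial UMIs, against 27.1% and 26.9%, and 1010 UMIs per cell, against 1532 and 2014. It was also counted against a different set of symbols: 262 symbols with at least 50 UMIs in the isotype library had 0 in PDL1/ATZ, 617 showed the reverse, and both numbers were 0 for PD1/PEM. The gene of the DNA sensor cGAS, for one, had 49 isotype and 59 PD1/PEM UMIs under its older symbol Mb21d1 and 108 PDL1/ATZ UMIs under Cgas. Cell barcodes in common numbered 23 between isotype and PD1/PEM and 0 between PDL1/ATZ and either of them.

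Summed over the members, the level was 704 CPM in isotype (691 to 717), 947 in PD1/PEM (931 to 962) and 1539 in PDL1/ATZ (1519 to 1559). CPM here is counts-per-million, a gene's UMIs over all UMIs of the library. Over non-mitochondrial UMIs alone the sums were 951, 1278 and 1668 CPM. The order of the libraries was the same on both scales. The plot of levels shows that single members spanned over 2 orders of magnitude, from Oas3 and Mx1 to Sp100 and Ifi203. These levels are CPM of a 3′ assay, which carry no correction for gene length.

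**Figure D1:**
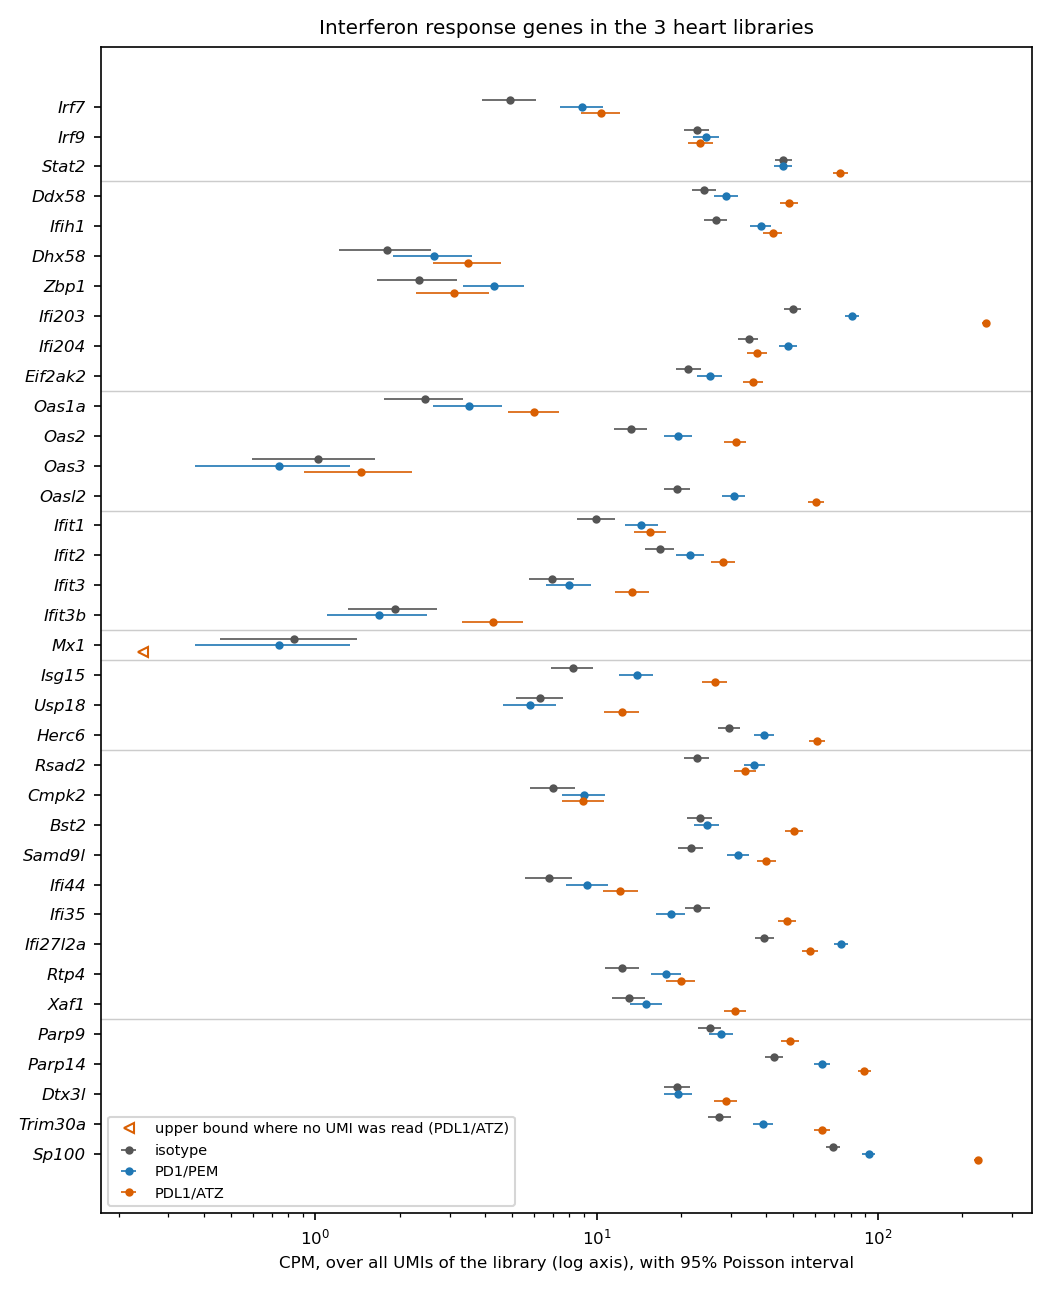
Level of each of the 36 members with a row in each library, in CPM on a log axis with 95% Poisson intervals. Grey lines separate the role groups. PDL1/ATZ points lie farthest right for most members, and the open arrow is the upper bound of 0.244 for Mx1, which had no UMI in PDL1/ATZ.

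Most members stood higher in PD1/PEM than in isotype, by modest ratios. Of the 34 members with at least 50 UMIs over the 2 libraries, 30 lay above a ratio of 1 and 4 below, with a median log2 ratio of 0.46. Over all 14748 genes compared the median was 0.01. A gene was called higher or lower at a ratio of at least 1.5 with an interval that excludes 1. By that rule 7 of 34 members (20.6%) were higher, against 5.0% of all genes, and 0 were lower, against 3.65%. The members called higher were Ifi27l2a, Zbp1, Irf7, Isg15, Ifi203, Rsad2 and Oasl2, and none of the 34 reached a ratio of 2.

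In PDL1/ATZ against isotype all 34 members lay above a ratio of 1, with a median log2 ratio of 0.95, but so did most genes. The median over all 15494 genes compared was 0.58, and 48.4% of all genes were called higher and 5.18% lower, against 27 (79.4%) and 0 of the members. Relative to that shift the members' median was 0.37. When the median gene was set to a ratio of 1, 27 members lay above 1 and 7 below, 8 were called higher and 0 lower, and 2549 of all genes were called higher and 2751 lower instead of 7506 and 803. The 8 were Ifi203, Sp100, Isg15, Oasl2, Oas1a, Oas2, Xaf1 and Trim30a. Both comparisons use the same isotype library, so they are not independent of each other.

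**Figure D2:**
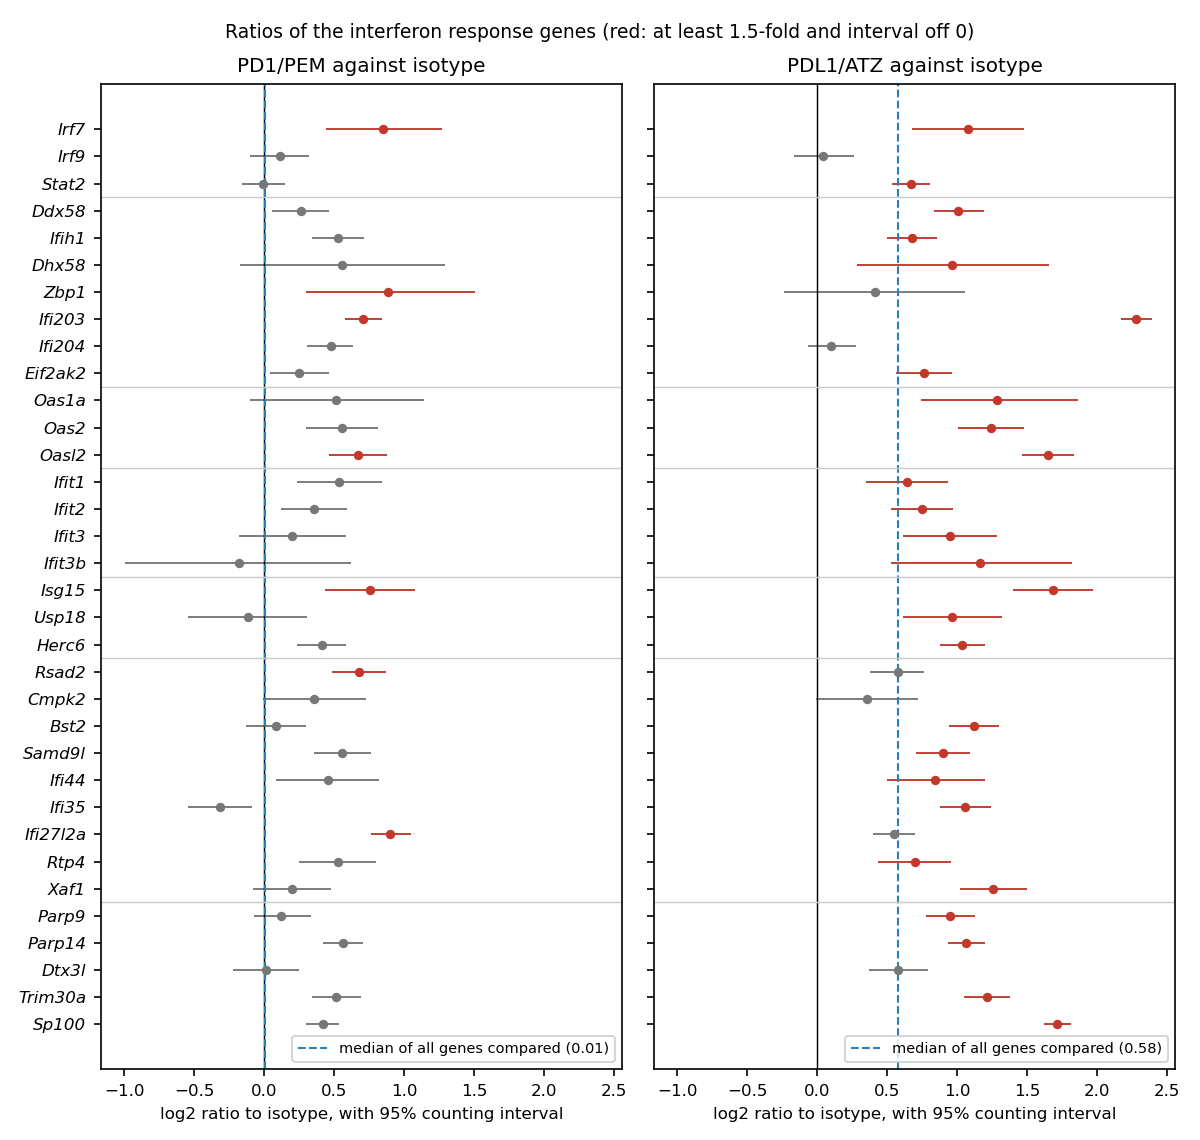
Log2 ratio of each of 34 members to isotype, for PD1/PEM (left) and PDL1/ATZ (right), with 95% counting intervals. Red points are members called higher, 7 on the left and 27 on the right, and the dashed line is the median of all genes compared, at 0.01 and 0.58.

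Among the transcription factors of the response, Irf7, the regulator that amplifies interferon induction, was the one called higher in both comparisons. Its level was 4.92 CPM in isotype (3.91 to 6.1), 8.87 in PD1/PEM (7.42 to 10.5) and 10.4 in PDL1/ATZ (8.81 to 12.1). The intervals of both antibody libraries lay above that of isotype. Its ratio to isotype was 1.80 in PD1/PEM (1.36 to 2.41) and 2.11 in PDL1/ATZ (1.60 to 2.79). Irf9 and Stat2, which act in ISGF3, were not called in PD1/PEM. Irf9 had 22.7, 24.5 and 23.4 CPM in isotype, PD1/PEM and PDL1/ATZ, with ratios of 1.08 (0.931 to 1.25) and 1.03 (0.89 to 1.2). Stat2 had 46.2, 46.1 and 73.6, with ratios of 0.996 (0.897 to 1.11) and 1.59 (1.45 to 1.75). The 1.03 of Irf9 was the lowest PDL1/ATZ ratio among the members, and with the median gene set to 1 it lay below 1. With that scaling Irf7 and Stat2 were not called in PDL1/ATZ either. They lay 0.50 and 0.09 above the median gene on the log2 scale. Irf9 overlaps Rnf31 on the same strand, so reads of these genes may be split.

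The sensors of RNA and DNA included the member with the widest difference in PDL1/ATZ. Ifi203, of the interferon-inducible p200 family of DNA-binding proteins, had 49.8 CPM in isotype (830 UMIs), 81.3 in PD1/PEM (1200 UMIs) and 242 in PDL1/ATZ (3661 UMIs). Its ratio was 1.63 in PD1/PEM (1.49 to 1.79) and 4.86 in PDL1/ATZ (4.50 to 5.24). Its family neighbour Ifi204 was not called in either library. Ifi204 had 34.7, 48.0 and 37.2 CPM in isotype, PD1/PEM and PDL1/ATZ, and its ratios were 1.39 (1.24 to 1.55) and 1.07 (0.953 to 1.21). The family is a tandem cluster on chromosome 1 with close copies, and Ifi203 (chr1:173920407-173942672, minus strand, GRCm38) overlaps Mndal on the same strand. How the authors' counting divides reads within the cluster is therefore uncertain, and its part in the Ifi203 ratio, with the different symbol set of PDL1/ATZ, was not tested. Mndal itself had ratios of 1.32 (1.23 to 1.42) and 2.71 (2.54 to 2.88), the latter with 3551 UMIs in PDL1/ATZ against 1445 in isotype.

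The remaining sensors lay above isotype in both antibody libraries, as did most genes in PDL1/ATZ. Zbp1, a sensor of left-handed nucleic acids, had 39, 64 and 47 UMIs in isotype, PD1/PEM and PDL1/ATZ. Its ratio was 1.85 in PD1/PEM (1.23 to 2.84) and 1.33 in PDL1/ATZ (0.85 to 2.08), where counts of this size leave a wide interval. The RNA helicases that detect viral RNA, Ddx58 (RIG-I) and Ifih1 (MDA5), had PD1/PEM ratios of 1.2 (1.04 to 1.38) and 1.44 (1.27 to 1.64). Neither reached the 1.5-fold limit there, and both were called in PDL1/ATZ, at 2.01 (1.78 to 2.28) and 1.60 (1.41 to 1.81). Eif2ak2, the kinase PKR that halts translation on double-stranded RNA, had ratios of 1.19 (1.03 to 1.38) and 1.70 (1.48 to 1.95). Dhx58, a helicase that regulates the RNA helicases Ddx58 and Ifih1, had only 30, 39 and 53 UMIs. With the median gene set to 1, none of these sensors was called in PDL1/ATZ. On the log2 scale Ddx58, Ifih1, Eif2ak2 and Dhx58 lay 0.43, 0.10, 0.19 and 0.37 above that gene, and Zbp1 lay at -0.17 from it.

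The oligoadenylate synthetases, which make the second messenger that activates RNase L, were above isotype in both libraries where counts allowed a comparison. Oasl2, a synthetase-like protein with the most UMIs of the group, had 19.3 CPM in isotype, 30.7 in PD1/PEM and 60.4 in PDL1/ATZ. Its ratio was 1.59 (1.38 to 1.84) in PD1/PEM and 3.13 (2.75 to 3.56) in PDL1/ATZ. Oas2 followed with 1.47 (1.23 to 1.76) and 2.36 (2.01 to 2.79), and Oas1a with 1.43 (0.933 to 2.21) and 2.44 (1.67 to 3.63). In PD1/PEM only Oasl2 of these passed the call. Oas3 had 17, 11 and 22 UMIs, too few for the main comparisons.

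The IFIT proteins, which bind viral RNA and block its translation, had a median log2 ratio of 0.28 in PD1/PEM. None of the 4 was called there. Ifit2 had 16.8, 21.5 and 28.2 CPM in isotype, PD1/PEM and PDL1/ATZ, with ratios of 1.28 (1.09 to 1.51) and 1.68 (1.44 to 1.96). Ifit3b had 32, 25 and 65 UMIs, with ratios of 0.882 (0.501 to 1.54) and 2.24 (1.44 to 3.53). Ifit1 and Ifit3 had PD1/PEM ratios of 1.45 and 1.15 and PDL1/ATZ ratios of 1.56 and 1.93. All 4 were called in PDL1/ATZ, against 48.4% of all genes, and the group's median of 0.85 stood against 0.58. With the median gene set to 1, none of the 4 was called, and Ifit1 and Ifit2 lay 0.06 and 0.17 above that gene on the log2 scale. Ifit3 and Ifit3b are near copies of each other, and the split of reads between them is uncertain.

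Isg15, the ubiquitin-like protein that is joined to other proteins during the response, was called in both comparisons. It had 8.21 CPM in isotype (137 UMIs), 13.9 in PD1/PEM (205 UMIs) and 26.3 in PDL1/ATZ (399 UMIs). Its ratio was 1.69 in PD1/PEM (1.35 to 2.11) and 3.21 in PDL1/ATZ (2.64 to 3.92). Usp18, which removes ISG15 from proteins and restrains receptor signalling, was level with isotype in PD1/PEM within its interval. It had 6.30, 5.82 and 12.3 CPM in isotype, PD1/PEM and PDL1/ATZ, with ratios of 0.925 (0.687 to 1.24) and 1.95 (1.53 to 2.50). Herc6, the mouse ligase that attaches ISG15, had 29.6, 39.4 and 60.7, with ratios of 1.33 (1.18 to 1.5) and 2.05 (1.84 to 2.29). With the median gene set to 1, Isg15 was still called in PDL1/ATZ, while Usp18 and Herc6 were not.

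The other antiviral effectors held the highest and the lowest PD1/PEM ratios. Ifi27l2a, a small interferon-inducible membrane protein, had 39.5 CPM in isotype, 74.0 in PD1/PEM and 57.5 in PDL1/ATZ. Its ratio was 1.87 in PD1/PEM (1.70 to 2.07) and 1.46 in PDL1/ATZ (1.32 to 1.62), so PD1/PEM held its highest level. Rsad2 (viperin), which makes a chain-terminating nucleotide, had 22.7 CPM in isotype, 36.4 in PD1/PEM and 33.8 in PDL1/ATZ, and the intervals of the last pair overlap. Its ratio was 1.60 (1.40 to 1.83) in PD1/PEM and 1.49 (1.30 to 1.70) in PDL1/ATZ. Ifi35 had the lowest PD1/PEM ratio, with 22.8, 18.4 and 47.5 CPM in isotype, PD1/PEM and PDL1/ATZ. Its ratios were 0.803 (0.685 to 0.941) and 2.08 (1.84 to 2.36). Cmpk2, the mitochondrial nucleotide kinase encoded beside Rsad2, had 117, 133 and 136 UMIs, and both its ratios were 1.28 with intervals that include 1. Bst2 (tetherin), which holds budding virus at the cell surface, had ratios of 1.06 and 2.17, Xaf1 1.15 and 2.39, Samd9l 1.47 and 1.86, Ifi44 1.37 and 1.79, and Rtp4 1.44 and 1.62. With the median gene set to 1, only Xaf1 of these effectors was called in PDL1/ATZ. Rsad2, Ifi27l2a and Cmpk2 lay at -0.00, -0.03 and -0.22 from that gene on the log2 scale.

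The PARP, ubiquitin ligase and nuclear body genes lay above isotype in all 5 cases in both libraries, as did most genes in PDL1/ATZ. None of them was called in PD1/PEM. Sp100, a scaffold of nuclear bodies that restrict incoming viral genomes, had 69.4, 92.7 and 227 CPM in isotype, PD1/PEM and PDL1/ATZ. Its ratio was 1.34 (1.23 to 1.45) in PD1/PEM and 3.28 (3.07 to 3.51) in PDL1/ATZ. Parp14, a mono-ADP-ribosyltransferase, had 42.8, 63.3 and 89.6, with ratios of 1.48 (1.34 to 1.63) and 2.09 (1.91 to 2.29). Trim30a had ratios of 1.43 (1.27 to 1.62) and 2.32 (2.07 to 2.60). Parp9 and its partner ligase Dtx3l, whose genes overlap on opposite strands, had PD1/PEM ratios of 1.09 (0.953 to 1.26) and 1.01 (0.859 to 1.19). Their PDL1/ATZ ratios were 1.93 (1.71 to 2.18) and 1.49 (1.29 to 1.73), the latter level with the median gene. With the median gene set to 1, Sp100 and Trim30a were called in PDL1/ATZ, while Parp14, Parp9 and Dtx3l were not.

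The other lists of the pathway were compared in the same way. Of 12 interferon genes listed, 10 had no row and were not analysed here. The others were Ifnk, with 1, 0 and 7 UMIs in isotype, PD1/PEM and PDL1/ATZ, and Ifng, with 1, 0 and 2. The counts that follow stand against 5.0% of all genes higher in PD1/PEM and 48.4% in PDL1/ATZ. Of 10 receptor and kinase genes, 0 were called in PD1/PEM and 5 were called higher in PDL1/ATZ, with median log2 ratios of 0.08 and 0.64. The receptor chain Ifnar2 had 38.6, 47.5 and 123 CPM in isotype, PD1/PEM and PDL1/ATZ. Of genes that sense nucleic acid or induce interferon, 3 of 12 were higher in PD1/PEM (median 0.27), among them Tmem173, which encodes STING, at 1.86 (1.43 to 2.42), and 5 of 11 in PDL1/ATZ (median 0.57). Of 10 negative regulators 0 were called in PD1/PEM (median 0.04), and 3 were higher and 1 lower in PDL1/ATZ (median 0.35). A wider list of other interferon-stimulated genes had 9 of 49 higher and 0 lower in PD1/PEM (median 0.24) and 37 of 51 higher and 0 lower in PDL1/ATZ (median 0.99). Its highest PD1/PEM ratios were 1.98 (1.44 to 2.73) for the synthetase-like gene Oasl1 and 1.84 (1.59 to 2.13) for the helicase gene Ddx60. Effectors of interferon gamma had 1 of 20 higher in PD1/PEM (median 0.07) and 11 of 21 higher and 1 lower in PDL1/ATZ (median 0.70). MHC class I and peptide loading genes had 0 of 24 called in PD1/PEM (median -0.03) and 13 of 24 higher in PDL1/ATZ (median 0.69). In PDL1/ATZ the shares higher were thus near that of all genes for the receptors (50%), the sensing genes (45.5%), the interferon gamma effectors (52.4%) and the MHC class I genes (54.2%), lower for the negative regulators (30%) and above it for the wider interferon-stimulated list (72.5%).

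Other gene groups also differed between these libraries. In PD1/PEM, 10 of 26 immediate early genes, which respond to tissue digestion, were higher (median 0.48), while in PDL1/ATZ 3 were higher and 3 lower (median -0.06). Haemoglobin genes were higher in 3 of 4 cases in each comparison (medians 0.91 and 1.09), and the remaining gene was lower in PDL1/ATZ. Of 3 neutrophil markers compared, 2 were higher in PD1/PEM (median 0.80) and 0 in PDL1/ATZ (median 0.27). Schwann cell markers summed to 59.2, 90.1 and 159 CPM in isotype, PD1/PEM and PDL1/ATZ, with 1 and 4 of 4 called higher. In PD1/PEM, 7 of 12 abundant cardiomyocyte transcripts were lower (median -0.60) and 14 of 15 macrophage markers lay above a ratio of 1 with 1 called (median 0.40). Summed macrophage markers were 515, 666 and 853 CPM in isotype, PD1/PEM and PDL1/ATZ, and summed endothelial markers were 3393, 3930 and 6335. Summed cardiomyocyte markers were 12743, 10073 and 4115, with 14 of 14 called lower in PDL1/ATZ. All markers of these 3 lists had UMIs in every library. Of 3 plasmacytoid dendritic cell markers, cells known for high interferon output, Ly6d was at 0 in every library, and the sum was 4.08, 3.79 and 7 CPM. Their part in the members' ratios was not tested. In sums over a library, fewer cells of a type and less RNA per cell cannot be told apart.

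The members were next described in cells that carry markers of a cell class. The first rule asked for at least 2 markers of a class (3 for cardiomyocytes) and fewer than 2 of any other. Cardiomyocyte markers did not count as another class. More than 1 of the other classes was marked in 81.5% of isotype, 93.3% of PD1/PEM and 81.8% of PDL1/ATZ cells. The rule left 948, 270 and 1710 endothelial and 505, 118 and 240 fibroblast cells, with at most 25 macrophage cells in any library. Cardiomyocyte markers remained at 0.922, 0.767 and 0.89 of the library's level in these endothelial cells. In the fibroblast cells they were at 1, 0.848 and 1.38, so neither group is a pure cell class. In the endothelial cells 4 of 21 members were higher and 1 lower in PD1/PEM (median 0.36), against 5.11% and 4.20% of genes, and 15 of 30 higher in PDL1/ATZ (median 0.77), against 32.3%. In the fibroblast cells 1 of 9 was higher in PD1/PEM (median 0.73), against 5.0%, and 5 of 15 in PDL1/ATZ (median 1.09), against 22%. No member had enough UMIs in the macrophage cells.

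A second rule, chosen after seeing the data, took cells whose UMIs for a class's markers were at least 2 times the library's own share, with at least 4 of its markers, for 1 class alone. It gave 379, 179 and 302 endothelial, 136, 248 and 236 macrophage, 485, 279 and 646 fibroblast, and 668, 603 and 767 cardiomyocyte cells in isotype, PD1/PEM and PDL1/ATZ. Markers of the other classes remained in each of these groups of cells, so that endothelial markers in cardiomyocyte cells were still at 0.637, 0.625 and 0.745 of the library's level. These values are therefore not levels of pure cell classes.

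By the second rule, the members made up a smaller share of the UMIs in cells enriched in cardiomyocyte markers than in the other cells, in each of the 3 libraries. The first rule did not give this. Its 232, 29 and 33 cardiomyocyte cells had 826 CPM in isotype (703 to 963), 1149 in PD1/PEM (781 to 1631) and 1180 in PDL1/ATZ (812 to 1657), or 1.17, 1.21 and 0.767 of the library's level, and each interval held that level. Their cardiomyocyte markers were at 1.18, 0.898 and 3.24 of the library's level, against 2.67, 2.88 and 4.25 by the second rule. In the cells of the second rule the summed level was 470 CPM in isotype (439 to 503), 664 in PD1/PEM (631 to 699) and 1151 in PDL1/ATZ (1094 to 1211), which was 0.668, 0.701 and 0.748 of the library's level. Against the other cells of the library, 14 of 30, 13 of 32 and 8 of 33 members were called lower and 0 higher, where 14.6%, 18.3% and 4.52% of all genes were lower and 8.82%, 11.1% and 6.84% higher. Trim30a, Xaf1, Parp14 and Ifi204 were called lower in all 3 libraries. The median gene was at 0.859, 0.849 and 0.937 of its level in the other cells, and the median member at 0.629, 0.667 and 0.739. The cardiomyocyte cells were also deeper, with medians of 2605, 3755 and 1354 UMIs, and the part of depth was not tested. Counted per cell instead, they held 1.27, 2.48 and 1.98 member UMIs, against 1.23, 2.16 and 2.01 in the other cells. Stat2, for one, had 28.3 CPM in the isotype cells, 0.586 of the level in the other cells (0.432 to 0.779).

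In the endothelial, macrophage and fibroblast cells the sums lay near or above the library's level, as the plot by marker class shows. In isotype they were 795 (723 to 872), 822 (732 to 921) and 766 CPM (706 to 830), whose intervals overlap. In PDL1/ATZ the endothelial cells had 1958 (1834 to 2087), the macrophage cells 1846 (1729 to 1969) and the fibroblast cells 1486 (1408 to 1568). Few members were called against the other cells of their library in these classes. Those higher in endothelial, macrophage and fibroblast cells were 2, 2 and 1 of 30 in isotype, against 2.61%, 3.59% and 4.44% of genes. In PD1/PEM they were 4, 1 and 3 of 32, against 3.06%, 3.55% and 5.22%. In PDL1/ATZ they were 3, 4 and 1 of 33, against 3.37%, 5.28% and 4.23%. At most 1 was lower in any of these classes, against 1.07% to 5.40% of genes. Some single members differed by class. Sp100 in PDL1/ATZ had 381 CPM in endothelial cells (328 to 441) against 182 in fibroblast cells (155 to 212). Ifi204 had 70.8 in fibroblast cells (54.5 to 90.5) against 17.5 in cardiomyocyte cells (11.1 to 26.2) there. Ifi27l2a in PD1/PEM had 143 in fibroblast cells (114 to 177) and 105 in macrophage cells (82.7 to 131) against 56.4 in cardiomyocyte cells (47 to 67.1).

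**Figure D3:**
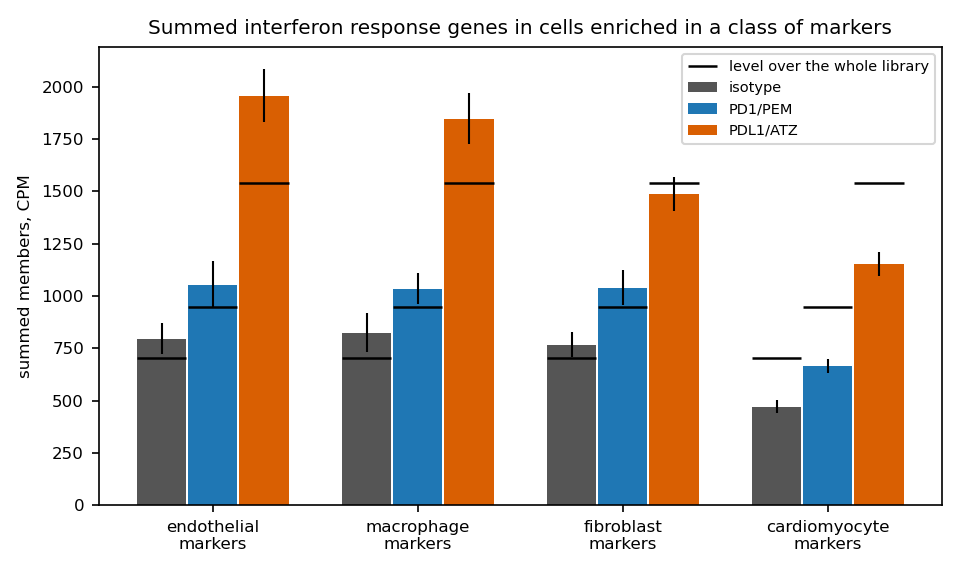
Summed level of the members, in CPM, in cells enriched in markers of 1 class by the second rule, by library, with 95% Poisson intervals. Black lines mark the level over the whole library, and the cardiomyocyte bars of 470, 664 and 1151 lie below theirs.

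Between libraries the members' median lay above isotype in all 4 of these classes. In PD1/PEM the median log2 ratios were 0.60 in endothelial, 0.24 in macrophage, 0.29 in fibroblast and 0.55 in cardiomyocyte cells, while the medians over all genes lay between -0.04 and 0.01. Members called higher were 3 of 17, 3 of 22, 4 of 23 and 6 of 29, against 5.82%, 4.50%, 4.64% and 6.82% of genes. In each class 0 were lower, against 5.82%, 4.83%, 5.74% and 5.04%. Ifi27l2a was called in macrophage, fibroblast and cardiomyocyte cells, and Samd9l in endothelial, fibroblast and cardiomyocyte cells. In PDL1/ATZ the medians were 0.96, 0.98, 0.73 and 1.18, against 0.39, 0.42, 0.42 and 0.54 over all genes. Members called higher there were 12 of 23, 8 of 21, 13 of 26 and 18 of 28, against 28.1%, 26.8%, 28.9% and 38.6% of genes. Ifi203, Sp100, Herc6, Parp14 and Trim30a were called in all 4 classes. The ratio of Ifi203 was 5.84 (4 to 8.77), 7.61 (4.48 to 13.9), 4.39 (3.13 to 6.30) and 6.43 (4.74 to 8.88) in endothelial, macrophage, fibroblast and cardiomyocyte cells. Whether the members differ between classes in their response was not tested.

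Per cell, few members were read, and after thinning most isotype and PD1/PEM cells held none. After each cell was thinned to 700 UMIs (483, 133 and 413 cells below that depth were set aside), at least 1 member was read in 38.9% of isotype cells (37.9 to 39.9), 49.1% of PD1/PEM cells (47.9 to 50.4) and 64.3% of PDL1/ATZ cells (63.4 to 65.2). At least 3 members were read in 1.44% (1.2 to 1.71), 3.05% (2.64 to 3.51) and 7.89% (7.40 to 8.41). Without thinning the shares with at least 3 were 12.9%, 32.3% and 25.6%, an order that differs from that of the thinned shares and of the summed levels. The variance of member UMIs per thinned cell was 1.04, 1.04 and 1.11 times the mean, where scattered counting gives a ratio near 1. A UMI in a droplet can be free RNA, so these shares are not shares of expressing cells.

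A small number of cells held at least 5 members at once. At least 5 were read in 0 of 9027 isotype cells (a count of 0 allows up to 0.0332%), in 3 of 6255 PD1/PEM cells (0.048%) and in 51 of 11186 PDL1/ATZ cells (0.456%, 0.34 to 0.599). The share depends on the depth kept: thinned to 500 UMIs, 13 of 11599 PDL1/ATZ cells (0.112%), 2 PD1/PEM cells and 0 isotype cells had at least 5. It also depends on the mean, since scattered counting alone gives more such cells at a higher mean. At 700 UMIs the mean was 0.499 member UMIs per cell in isotype, 0.69 in PD1/PEM and 1.06 in PDL1/ATZ. The share that scattered counting would give was not computed. The 51 cells had a median of 1330 UMIs and held 457 member UMIs, 1.96% of the members' UMIs in that library, and without them the summed level was 1517 CPM. Doublet scoring marked 5 of the 51. The cells were chosen by the members, so other lists describe them: their other interferon-stimulated genes were 1.68 times those of the remaining cells (1.51 to 1.86), interferon gamma effectors 1.83 times (1.55 to 2.14), MHC class I genes 1.22 times (1.07 to 1.39) and immediate early genes 0.945 times (0.859 to 1.04). Of the 51, 41 were enriched in markers of no single class. The 51 cells had 2529 CPM of cardiomyocyte markers, against 4148 in the remaining cells, and 7601 of endothelial markers, against 6341. The part of these marker differences in the ratios of the lists was not tested. The cell with the most had 46 member UMIs of 16 members among 1784 UMIs, including 7 of Rsad2, 6 of Sp100 and 5 of Herc6, beside 8 of the endothelial marker Cyyr1. The next had 34 member UMIs of 19 members among 3923 UMIs, with 21 UMIs of the fibroblast marker Abca8a.

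**Figure D4:**
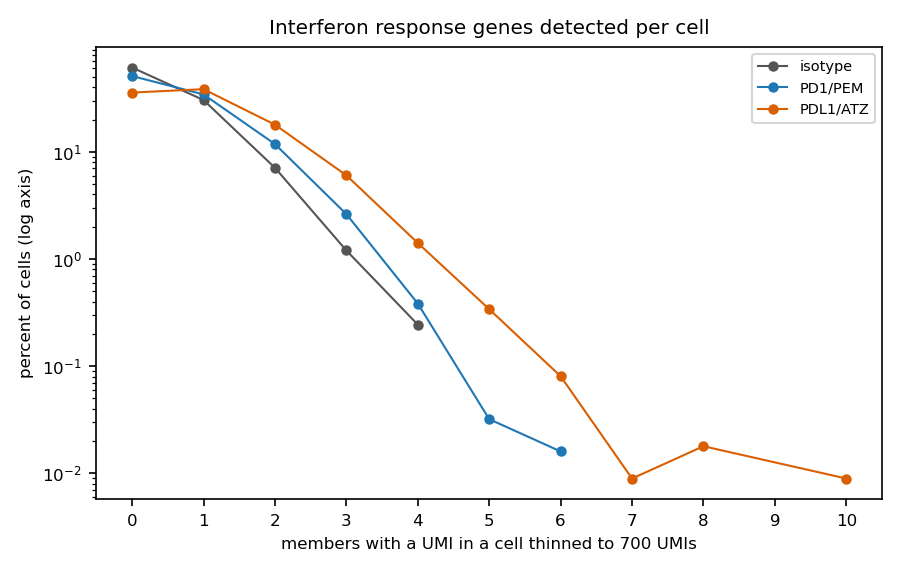
Percent of cells (log axis) by the number of members with a UMI, after thinning each cell to 700 UMIs. The PDL1/ATZ line reaches 10 members in 1 cell, PD1/PEM reaches 6 and isotype 4.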

How the data were processed

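Hearts were profiled as 1 droplet library per group. The authors deposited counts (UMIs, in whole numbers, of each gene in each cell). Cell Ranger, Seurat and mm10 are named per the submitters' processing notes, and the sources used here give no versions, annotation or cell filters. The members and gene lists were chosen with earlier results of these data known. UMIs were summed per library over all deposited cells (at least 50 UMIs over both libraries, at least 20 within marker classes), with exact Poisson, Clopper-Pearson and conditional binomial intervals at 95%, and log2 ratios used a pseudocount of 0.5. Symbols with 0 UMIs in 1 library of a comparison were left out of it. Values are given for the 4 highest and 4 lowest ratios, the most abundant member of each role group and other members with at least 50 UMIs. Doublets were scored against simulated doublets and kept, with 724, 326 and 1076 cells marked, and leaving them out is an alternative. The ratio step was tested on simulated data. Positions are from GENCODE M21. Other scalings, UMI minimums, mitochondrial limits, fold limits, thinning and marker rules were tried. Tools were Python 3.11.15, NumPy 2.4.6, SciPy 1.17.1, pandas 2.3.3, scikit-learn 1.9.0 and matplotlib 3.10.9.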

Additional observations from a re-analysis of the deposited data

How the results depend on the processing

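Between libraries, no median or count of the members reversed in direction in the alternatives run. Within a library, the level of a class against the library's did reverse with the marker rule. No paired analysis was possible because each group has 1 library, and for the same reason no replicate could be left out. For PD1/PEM the members' median log2 ratio was 0.36 in cells with at most 25% mitochondrial UMIs, against 0.00 over all genes. At 2-fold, over all PD1/PEM cells, 0 of 34 members were called, against 127 of 14748 genes higher and 67 lower. For PDL1/ATZ 15 of 34 members were called higher at 2-fold, against 3870 of 15494 genes. With the median gene set to 1, 8 of 34 members were called higher, against 2549 of 15494 genes, and the members' median was 0.37. That median was 0.63 per non-mitochondrial UMI, 0.82 after thinning and 0.60 without mitochondrial, haemoglobin and abundant cardiomyocyte UMIs (added after seeing the data). Over all genes the medians in these last settings were 0.26, 0.52 and 0.24. In endothelial cells the PD1/PEM median was 0.58 at 50 UMIs, and by the second marker rule 0.60, 0.61 without doublets and 0.61 per non-mitochondrial UMI. In fibroblast cells it was 0.99 with more markers required, and by the second rule 0.29, 0.25 and 0.30 likewise. The PDL1/ATZ endothelial median was 1.1 under the mitochondrial limit, 0.45 per non-mitochondrial UMI, 0.90 at 50 UMIs, and by the second rule 0.96, 1.17 and 0.62. The fibroblast median was 0.77 per non-mitochondrial UMI, 1.55 with more markers required, and by the second rule 0.73, 0.85 and 0.41. Over the library's level, cardiomyocyte cells stood at 1.17 in isotype and 1.21 in PD1/PEM by the first rule, 1.16 and 1.18 with more markers required, and 0.668 and 0.701 by the second rule. PDL1/ATZ cardiomyocyte cells stood at 0.767, 0.46 (10 cells with 7 member UMIs) and 0.748. Isotype fibroblast cells went from 0.946 to 1.09 by the second rule and PD1/PEM endothelial cells from 0.99 to 1.11, while endothelial cells were at 1.13 in isotype and 1.27 in PDL1/ATZ by it. Cells with at least 3 members were 0.575%, 1.35% and 3.83% when thinned to 500 UMIs, and 1.09% of isotype cells under the mitochondrial limit. Cells with at least 5 members were 0.112% in PDL1/ATZ when thinned to 500 UMIs, and under the mitochondrial limit 1 isotype cell had as many. The cause of these moves was not tested. By the first marker rule, macrophage and cardiomyocyte cells held too few UMIs for a median.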
